A study of Mus musculus with 31 samples.

Results

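The Nrf2 antioxidant targets examined here were 10 genes chosen by name, Hmox1, Nqo1, Gclc, Gclm, Txnrd1, Slc7a11, Srxn1, Gsr, Osgin1 and Me1, out of 46072 genes listed for every tumor. All 10 had a mean of at least 0.5 TPM (a gene's share of a library's transcripts, corrected for length and scaled to a fixed total) in both tumor models, so all 10 were tested. The RM-9 (mouse prostate cancer) and MC-38 (mouse colon cancer) cell lines were grown under the skin of the right hind leg of wild-type C57BL/6 mice (substrain C57BL/6J in the study's methods) until the tumors measured about 8 mm across. Tumors then received a single radiation dose (RT) of 15 Gy or no treatment, and messenger RNA was sequenced from 31 tumors, 1 library per mouse. RM-9 had 4 control, 4 RT 3 h, 4 RT 12 h and 3 RT 24 h tumors, and MC-38 had 4 tumors in each group. The controls carried the 3 h time label, and the same 4 controls of a model served all 3 RT times. Whole tumors were sequenced, so fewer cells of a type and less RNA per cell cannot be told apart in any value given here. Both lines were grafts under the skin rather than tumors in the organ of origin, and each was represented by 1 cell line.

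Nrf2, the transcription factor encoded by Nfe2l2, is held at a low level by Keap1, an adaptor that brings it to the Cul3 ubiquitin ligase. When electrophiles or oxidants modify Keap1, Nrf2 accumulates, pairs with a small Maf protein (Maff, Mafg or Mafk) and binds antioxidant response elements, and Bach1 competes for the same sites and represses Hmox1 in particular. Its targets supply cysteine and glutathione, reduce thioredoxin and glutathione, deliver NADPH and detoxify heme and quinones, and ionizing radiation is a well-known source of the oxidants that these systems remove.

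The response element is what defines this group in textbooks, so the promoters were read for it. RefSeq promoters (GRCm38.p6) were at hand for 7 of the 10 genes, with 10 start sites in all, and the 250 bases before each start were searched on both strands for the core TGACNNNGC. The core was present before 2 start sites, that of Gclm and 1 of 3 starts of Txnrd1, against 10.2% of all 32851 promoters of the same length. Both are printed 5′ to 3′ on the plus strand with the core in capitals, as the complement of the motif because both matches lie on the minus strand.
Gclm, chr3:122245307-122245556: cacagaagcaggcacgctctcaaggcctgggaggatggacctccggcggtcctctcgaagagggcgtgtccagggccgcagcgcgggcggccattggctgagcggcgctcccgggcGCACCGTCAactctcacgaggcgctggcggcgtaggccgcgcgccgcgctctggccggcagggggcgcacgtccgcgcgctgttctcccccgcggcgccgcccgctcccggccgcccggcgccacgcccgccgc
Txnrd1, chr10:82858956-82859205: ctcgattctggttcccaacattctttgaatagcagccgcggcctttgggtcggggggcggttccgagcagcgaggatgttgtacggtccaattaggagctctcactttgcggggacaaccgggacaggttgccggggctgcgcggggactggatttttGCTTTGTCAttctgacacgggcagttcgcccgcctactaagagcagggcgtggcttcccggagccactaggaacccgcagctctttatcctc
The Gclm match covers positions -134 to -126 and the Txnrd1 match positions -92 to -84, counted from the start site. The AP-1 site TGANTCA, which can overlap the response element, was found in the windows of Srxn1 (-102 to -96 and -45 to -39) and Osgin1 (-97 to -91), against 6.75% of all promoters. These matches are descriptions of the letters in these windows, and response elements outside them were not searched.

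The libraries held 21.4 to 29.4 M reads. A single mitochondrial transcript, mt-Nd4l, took 35.6 to 43.5% of TPM in RM-9 and 12.9 to 29.6% in MC-38, and TPM sums to a fixed total. Taken over all genes tested, the log2 difference from control had a median of 0.056, -0.19 and -0.040 at 3, 12 and 24 h in RM-9 and of 0.19, 0.33 and 0.22 in MC-38. With mitochondrial genes taken out of the total, these medians were 0.054, -0.062 and -0.0084 in RM-9 and 0.11, 0.20 and 0.12 in MC-38. Calls of the 10 genes are therefore given on TPM and on TPM divided by a median-ratio size factor per library, called scaled TPM here, which sets the median gene near 0. MC-38 control mouse 1 stood apart, with a size factor of 0.653, 40.6% of its TPM from mitochondrial genes and 9783 TPM summed over 5 skeletal muscle markers, against 16.9 to 1592 TPM in the other controls, and calls of the 10 genes against it are given without it too. Of 5 p53 targets that mark a radiation response, 3 passed the test higher at 3 h in RM-9 and 2 in MC-38, and 4 and 1 on scaled TPM. Cdkn1a, a cell cycle inhibitor, was higher by 0.96 on the log2 scale in RM-9 and 0.80 in MC-38, and Mdm2, which degrades p53, by 1.27 and 1.11, and on scaled TPM Cdkn1a in MC-38 was at 0.58 (limma adjusted p = 0.0828). The epithelial markers Krt8, Krt18, Epcam and Cdh1 summed to 610 to 1394 TPM in RM-9 and to 0.424 to 1.56 TPM in MC-38, where up to 3 of the 4 were at 0, so the adenocarcinoma label of MC-38 was not matched by these markers.

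After radiation, 1 of these genes passed the test in RM-9 and 4 did in MC-38, where Gsr, Me1, Txnrd1 and Osgin1 were higher at 12 h. In RM-9, 0 of 10 passed the test at 3 h (limma on log2(TPM + 0.5), Benjamini-Hochberg adjusted p under 0.05 over all genes), 1 of 10 was lower at 12 h and 0 of 10 passed at 24 h. In MC-38, 0 of 10 passed at 3 h, 4 of 10 were higher at 12 h and 1 of 10 was higher at 24 h. The share of all tested genes that passed in the same direction was 0.2% higher and 0.0285% lower in RM-9 at 3 h, 8.3% lower at 12 h and 0% at 24 h. In MC-38 it was 0.051% higher and 0.0127% lower at 3 h, 28.5% higher at 12 h and 13.2% higher at 24 h. Read against these shares, the 4 of 10 at 12 h and the 1 of 10 at 24 h in MC-38 lie near the level of genes in general. At an unadjusted p under 0.05 the count was 4 of 10 in RM-9 at 3 h, 1 of 10 at 24 h and 1 of 10 in MC-38 at 3 h, against 21.8%, 4.86% and 19.9% of all genes. Scaled TPM gave 0 calls in each of these 3 comparisons.

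**Figure D1:**
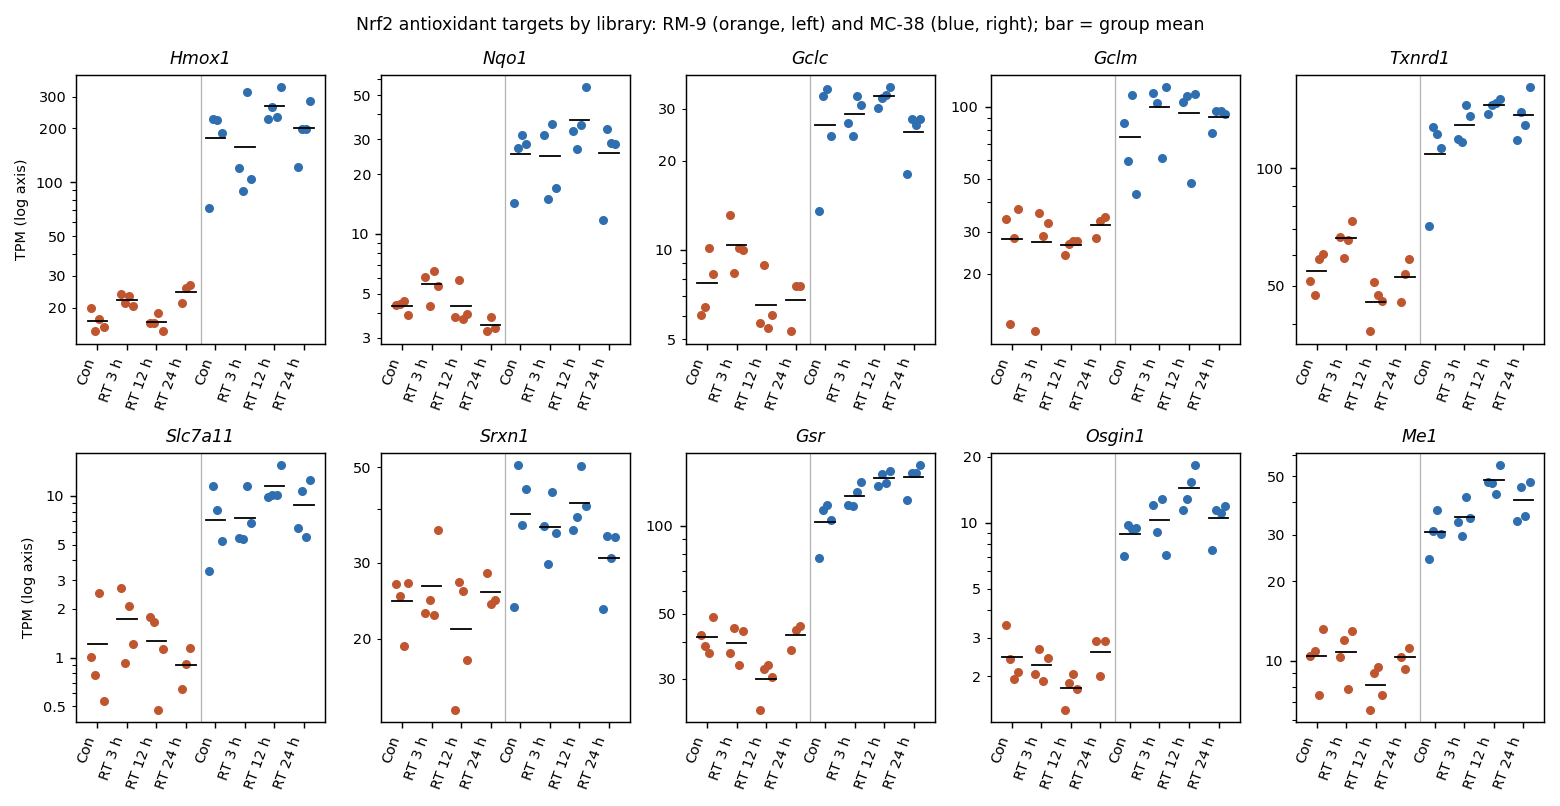
TPM (log axis) of each of the 10 genes in every library, with 1 point per tumor, a bar at the group mean, RM-9 on the left (orange) and MC-38 on the right (blue) of each panel. The MC-38 points lie above the RM-9 points for most genes, and Gsr, Me1, Txnrd1 and Osgin1 at 12 h in MC-38 stand clear of their 4 controls.

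The group as a whole was more abundant in MC-38 than in RM-9 before any radiation. All 10 genes were higher in MC-38 controls than in RM-9 controls by limma over all 31 libraries, against 64.7% of all 15358 genes tested, and their median log2 difference was 1.58 against 0.63 over all genes. The span ran from Srxn1, which reduces overoxidized peroxiredoxins, at 0.61 (adjusted p = 0.0101), to Hmox1, the oxygenase that opens heme, at 3.23 (adjusted p = 5.49e-10). On scaled TPM 8 of 10 passed, against 34.1% of all genes, and the median was 0.94 against 0.031. Coverage-derived values gave 9 of 10, against 44.6% of all genes. On scaled TPM, Gclm stood at 0.77 (adjusted p = 0.051) and Srxn1 changed sign to -0.049 (adjusted p = 0.81). Leaving out MC-38 control mouse 1 kept the count at 10 and put Hmox1 at 3.62. Model and library set cannot be told apart in this comparison, and cell type markers also differed between the untreated tumors. Epithelial markers summed to 1059 to 1289 TPM in RM-9 and 0.424 to 1.10 in MC-38. T cell markers summed to 1.98 to 3.84 and 8.01 to 12.1 TPM, and endothelial markers to 14.7 to 21.3 and 32.4 to 44.9. In MC-38 controls 4 of 4 tested erythroid markers were higher, also on scaled TPM. Of macrophage markers 4 of 6 were higher, near the 64.7% of all genes, and on scaled TPM 1 was higher and 1 lower. The part of these cells in the result was not tested.

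**Figure D2:**
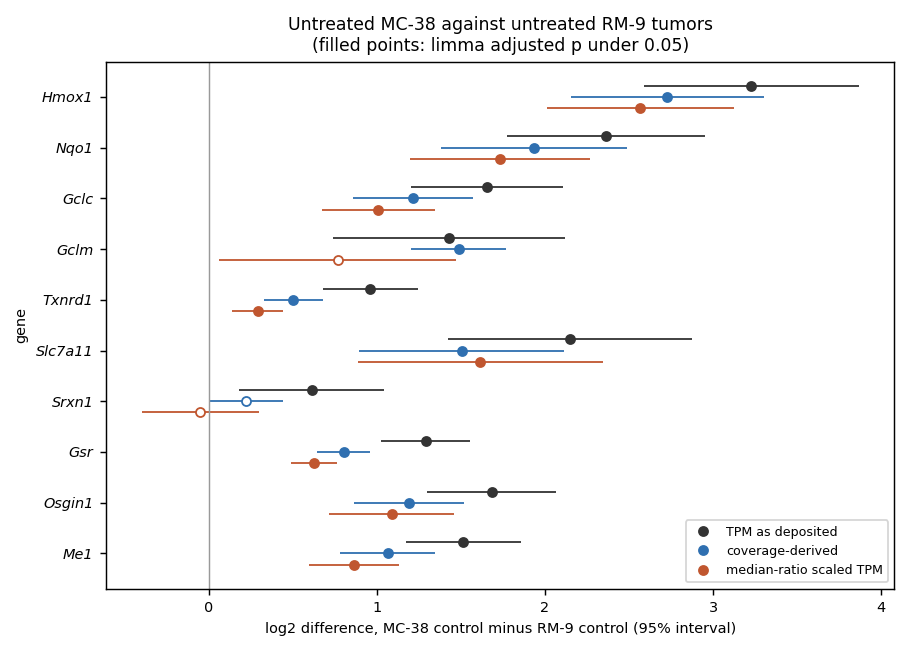
Difference between untreated MC-38 and untreated RM-9 tumors for each gene, in log2 units with 95% intervals, on the scales named in its key, with filled points where limma gave an adjusted p under 0.05. Hmox1 and Nqo1 lie farthest to the right, and Srxn1 crosses 0 on scaled TPM.

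The order of the genes depended on which deposited measure was used. By mean TPM over all libraries of a model, RM-9 ran from Txnrd1 (54.8) and Gsr (38.1) down to Osgin1 (2.25) and Slc7a11 (1.30), and MC-38 from Hmox1 (200.1), Gsr (131) and Txnrd1 (130.1) down to Osgin1 (11.03) and Slc7a11 (8.65). Values rebuilt from the deposited coverage per base and the read depth, scaled for gene length and depth like FPKM, put Txnrd1 first and Slc7a11 last in both models (67.6 and 0.776 in RM-9, 100.3 and 3.17 in MC-38). Gsr moved most, from rank 2 to 6.94 in RM-9 and 14.9 in MC-38 on that scale, because its deposited FPKM was 6.77 times its coverage-derived value in nearly every library. That ratio hardly varied between libraries, so it changes the level of Gsr against other genes and not its fold changes. Within MC-38 by TPM, Gsr and Txnrd1 had overlapping values, as had Nqo1 and Gclc (both with a mean of 28.3), and Me1 and Srxn1.

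Gsr, the reductase that returns oxidized glutathione to its reduced form, was the only member that passed the test at more than 1 time after radiation in MC-38. MC-38 tumors held 77.8, 113, 118 and 105 TPM in control mice 1 to 4, 118, 117, 130.3 and 142 at 3 h, 137, 151, 141 and 154 at 12 h, then 123, 152, 152 and 162 at 24 h. All 12 h and 24 h tumors lay above all controls, as was so for 34.5% and 14.8% of all genes, and the 3 h tumors overlapped them. At 12 h Gsr was higher by 0.51 on the log2 scale (SE 0.12, limma adjusted p = 0.0148; two-sided exact permutation p = 0.0286, the smallest that 4 against 4 can give). At 24 h it was higher by 0.52 (SE 0.12, limma adjusted p = 0.0146, exact permutation p = 0.0286), with a mean of 147 ± 16.7 TPM against 103 ± 18.0 (SD, n = 4 each). Scaled TPM made the MC-38 groups much tighter, at 115 to 119 in controls, 122 to 127 at 3 h, 127 to 138 at 12 h and 132 to 147 at 24 h, each time group above all controls. The share of all genes separated in this way on scaled TPM was not computed, here or for the genes below. The size of the Gsr difference was smaller on scaled TPM, 0.16 at 12 h (limma adjusted p = 0.0315) and 0.25 at 24 h (limma adjusted p = 0.0025). Its residual SD on that scale was 0.0445 log2 units, a lower spread than in all but 0.0637% of the 15698 genes tested. Without MC-38 control mouse 1, Gsr on TPM was 0.38 at 12 h (limma adjusted p = 0.0288) and 0.38 at 24 h (limma adjusted p = 0.0251), and on scaled TPM 0.16 (limma adjusted p = 0.0676) and 0.26 (limma adjusted p = 0.0068). Over all alternatives its adjusted p ran from 0.0064 to 0.0676 at 12 h and from 0.0022 to 0.11 at 24 h.

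Gsr went the other way in RM-9 at 12 h. RM-9 tumors held 42.3, 38.9, 36.7 and 48.8 TPM in controls, 36.8, 44.8, 33.4 and 43.6 at 3 h, 23.5, 32.4, 33.5 and 30.4 at 12 h, then 37.5, 43.9 and 45.3 at 24 h. The 12 h tumors all lay below all controls, and the 24 h tumors lay among the controls and above all 12 h tumors. Gsr fell by 0.47 on the log2 scale at 12 h (SE 0.13, limma adjusted p = 0.0408, exact permutation p = 0.0286), from 41.7 ± 5.27 to 29.9 ± 4.50 TPM (SD, n = 4 each). Of all genes tested, 19.4% had 12 h tumors wholly below the controls, and on scaled TPM the difference of Gsr was -0.26 (limma adjusted p = 0.18), where 0.0428% of all genes passed lower, so the call was lost. It was also lost without any of control mice 1, 2 and 4 or 12 h mice 1, 2 and 4, with values from -0.53 to -0.36. Without control mouse 1, 2 or 4 or 12 h mouse 1 or 4, however, 0 of all 14013 genes passed. Without 12 h mouse 2, 598 of all genes were lower.

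Me1, the cytosolic malic enzyme that makes NADPH, was higher at 12 h in MC-38. Its MC-38 values were 24.4, 30.9, 37.2 and 30.1 TPM in controls, 33.4, 29.7, 41.6 and 34.8 at 3 h, 47.5, 47.2, 42.8 and 55.0 at 12 h, then 33.7, 45.3, 35.4 and 47.3 at 24 h. The 12 h tumors stood above all controls and above all 3 h tumors, and the 24 h tumors overlapped both. Me1 was higher than control by 0.65 at 12 h (SE 0.15, limma adjusted p = 0.0123, exact permutation p = 0.0286), a ratio of means of 1.57. On scaled TPM the controls spanned 32.4 to 37.3 and the 12 h tumors 38.6 to 49.2, still apart, with 0.30 and a limma adjusted p of 0.0512. Values rebuilt from coverage gave 0.37 (limma adjusted p = 0.0256), and leaving out MC-38 control mouse 1 gave 0.55 (limma adjusted p = 0.0285). In RM-9, Me1 was at 10.4, 10.9, 7.46 and 13.1 TPM in controls, 10.4, 12.0, 7.82 and 13.03 at 3 h, 6.55, 9.01, 9.52 and 7.42 at 12 h, then 10.4, 9.34 and 11.2 at 24 h. All RM-9 groups overlapped for Me1.

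Txnrd1, the selenoenzyme that reduces thioredoxin, was the most abundant member in both models by coverage-derived values, and in RM-9 also by TPM. In MC-38 it held 71.3, 128, 122 and 113 TPM in controls, 119, 117, 145 and 136 at 3 h, 138, 146, 147 and 151 at 12 h, then 118, 139, 129 and 162 at 24 h. The 12 h tumors lay within a narrow band above all controls, and the low value of control mouse 1 set much of the gap. At 12 h it was higher by 0.45 (SE 0.15, limma adjusted p = 0.0373, exact permutation p = 0.0286), which became 0.27 without control mouse 1 (limma adjusted p = 0.096) and 0.10 on scaled TPM (limma adjusted p = 0.33). RM-9 held 51.4, 47.4, 58.6 and 60.3 TPM in controls, 66.8, 59.0, 65.3 and 73.4 at 3 h, 38.2, 51.0, 47.2 and 45.6 at 12 h, then 45.4, 53.6 and 58.6 at 24 h. The 3 h mean of 66.1 ± 5.93 TPM was above the control mean of 54.4 ± 6.06 with 3 of 4 tumors above all controls, and the exact permutation p was 0.0571.

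Srxn1 was lower at 24 h in MC-38 on scaled TPM, but the difference did not pass the test on TPM. It stood at 23.7, 50.6, 36.7 and 44.6 TPM in MC-38 controls, 36.6, 29.8, 43.8 and 35.3 at 3 h, 35.7, 38.4, 50.2 and 40.7 at 12 h, then 23.4, 34.5, 30.8 and 34.4 at 24 h. The groups overlapped on TPM, where the 24 h difference was -0.29 (limma adjusted p = 0.34, exact permutation p = 0.229). On scaled TPM the controls held 36.2, 53.2, 35.7 and 50.1 and the 24 h tumors 25.1, 31.7, 29.0 and 31.2, all below all controls, and the difference of -0.56 passed the test (limma adjusted p = 0.0176). Of all genes, 8.2% passed lower on scaled TPM. Without control mouse 1 the scaled difference was -0.64 (limma adjusted p = 0.016). The deposited FPKM of Srxn1 was 1.37 and 1.35 times the coverage-derived value in control mice 2 and 4, whose TPM was highest, and 1.01 to 1.04 times in the other 2 controls and the 24 h tumors. The part of this ratio in the result was not tested, but coverage-derived values differed by -0.31 (limma adjusted p = 0.0686) and by -0.35 with median-ratio scaling (limma adjusted p = 0.0213). Coverage-derived values were 22.4 ± 3.25 at 24 h against 27.8 ± 2.28 in controls (SD, n = 4 each, exact permutation p = 0.0286). RM-9 showed 26.9, 25.1, 19.2 and 26.9 TPM in controls, 23.0, 24.6, 22.7 and 35.7 at 3 h, 13.7, 27.1, 25.8 and 17.9 at 12 h, then 28.4, 24.1 and 24.5 at 24 h. These groups overlapped.

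Gclc and Gclm, the catalytic and modifier subunits of the ligase that limits glutathione synthesis, did not pass the test against control at any time in either model on TPM or scaled TPM. Gclc was at 13.5, 33.2, 34.9 and 24.2 TPM in MC-38 controls, 26.8, 24.2, 33.2 and 30.8 at 3 h, 30.2, 32.6, 33.4 and 35.5 at 12 h, then 18.0, 27.6, 26.4 and 27.7 at 24 h. Without control mouse 1, the scaled difference of Gclc at 24 h was -0.43 (limma adjusted p = 0.0231). All 24 h tumors lay below all 12 h tumors on TPM, with a difference of -0.42 that did not pass the test (limma adjusted p = 0.43). The RM-9 values of Gclc were 6.02, 6.41, 10.1 and 8.29 TPM in controls, 13.1, 8.38, 10.2 and 9.97 at 3 h, 5.64, 8.86, 5.47 and 6.05 at 12 h, then 5.31, 7.53 and 7.53 at 24 h. RM-9 tumors at 12 h were lower than at 3 h by 0.65 (limma adjusted p = 0.025), and by 0.38 on scaled TPM (limma adjusted p = 0.24).

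For Gclm, 2 deposited measures of the same libraries disagreed on how far single tumors lay from the rest. Its TPM in RM-9 was 33.8, 12.3, 28.3 and 37.2 in controls, 11.5, 35.8, 28.6 and 32.6 at 3 h, 24.0, 26.6, 27.5 and 27.3 at 12 h, then 28.3, 33.3 and 34.7 at 24 h. MC-38 held 85.4, 59.2, 112 and 43.0 TPM in controls, 114, 103, 60.9 and 121 at 3 h, 104, 111, 47.8 and 112 at 12 h, then 77.7, 95.8, 95.8 and 92.9 at 24 h. Single tumors in several groups thus sat far below the others of their group. Values rebuilt from coverage spanned only 4.81 to 9.03 in RM-9 and 15.7 to 25.4 in MC-38, and the deposited FPKM was 1.90 to 5.35 times those values, a range of 2.81-fold, while the same ratio varied by at most 1.41-fold, in Srxn1, for the other 9 genes. The gene models Gm17494, on the opposite strand, and Gm6061, on the same strand, overlap Gclm on chromosome 3 and ranged from 8.30 to 120.4 and from 11.8 to 541 TPM. Their part in the result was not tested. The low Gclm tumors are therefore not read as a difference between mice.

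**Figure D3:**
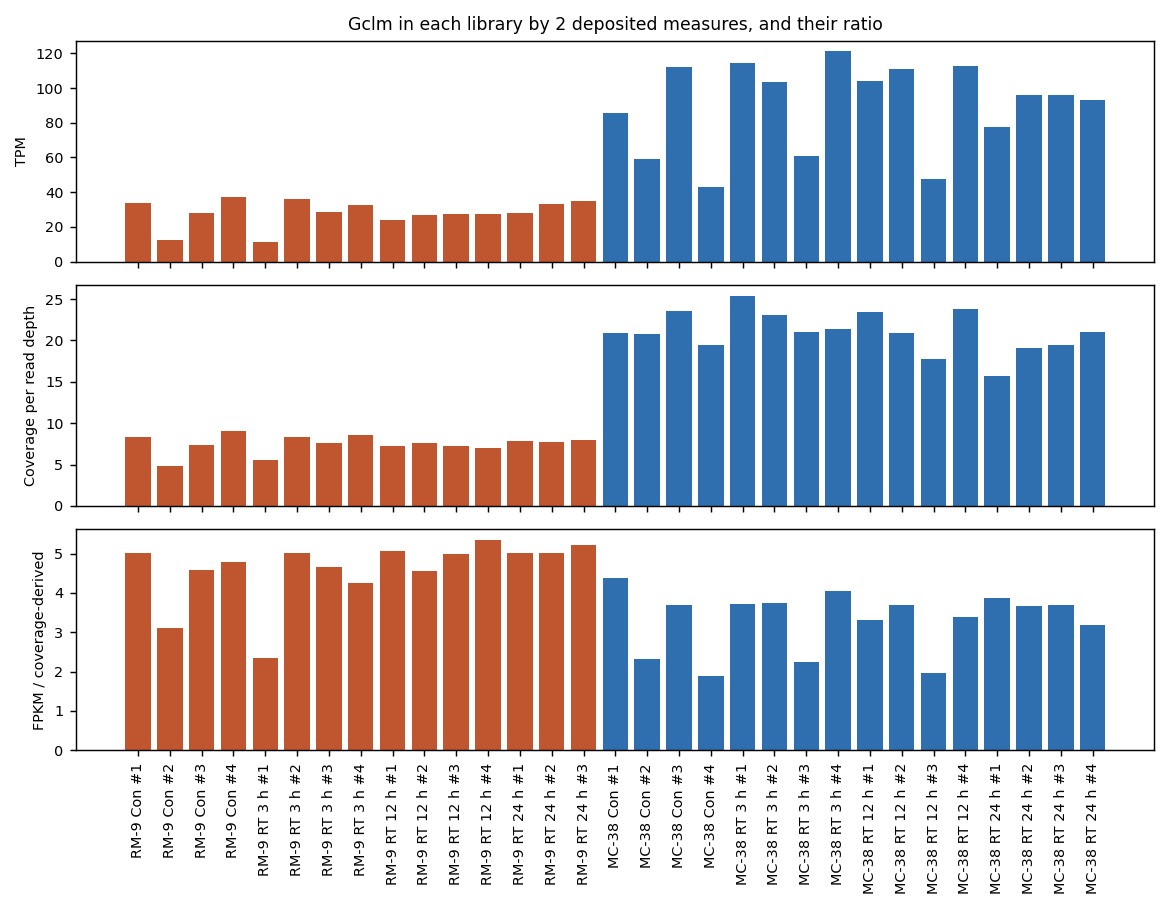
Gclm in each of the 31 libraries as deposited TPM, as values rebuilt from deposited coverage, and as the ratio of FPKM to the coverage-derived value, with bars coloured by tumor model (RM-9 orange, MC-38 blue) and starting at 0. TPM is low in single tumors where the coverage-derived values differ less from the rest, and the ratio, from 1.90 to 5.35, is low in the same tumors.

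Slc7a11, the cystine importer that supplies the cysteine of glutathione, was the least abundant member. On TPM it had the largest log2 difference of the 10 from control, at 12 h in MC-38. It was at 3.44, 11.4, 8.15 and 5.26 TPM in MC-38 controls, 5.51, 5.43, 11.5 and 6.78 at 3 h, 9.85, 10.2, 10.2 and 15.5 at 12 h, then 6.35, 10.7, 5.59 and 12.5 at 24 h. The 12 h difference of 0.75 did not pass the test (limma adjusted p = 0.0855, exact permutation p = 0.114), and control mouse 2 was higher than 3 of the 4 tumors at 12 h. The median over all genes was 0.33 on the same scale. The ratio of means was 1.62 on TPM and 1.38 on coverage-derived values (exact permutation p = 0.2). RM-9 held 1.02, 0.784, 2.52 and 0.536 TPM in controls, 2.70, 0.930, 2.10 and 1.21 at 3 h, 1.79, 1.65, 0.477 and 1.14 at 12 h, then 0.639, 0.907 and 1.14 at 24 h. These groups overlapped. Among 13569 other genes tested in both models, the 6 log2 differences on TPM of Kansl1l (root mean square difference 0.0658), Ankrd12 (0.0724) and Wee1 (0.0814), a kinase that holds cells before mitosis, were nearest to those of Slc7a11.

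On TPM, Hmox1 was the only member whose RM-9 tumors lay wholly above the controls at any time. No Hmox1 difference from control passed the test over all genes. RM-9 tumors held 19.9, 14.7, 17.3 and 15.6 TPM in controls, 23.8, 21.3, 23.1 and 20.4 at 3 h, 16.4, 16.5, 18.7 and 14.8 at 12 h, then 21.2, 25.7 and 26.6 at 24 h. On TPM all 3 h and all 24 h tumors lay above all controls, and the 12 h tumors lay among the controls and below both other times. On scaled TPM the 24 h tumors still lay above all controls, but 3 h mice 2 and 4 lay below control mouse 1. On that scale 12 h mouse 1 lay above the same 3 h tumors. Coverage-derived values at 3 h also overlapped the controls, with a lowest of 8.96 against a highest control of 9.70. The ratio to the control mean of 16.9 ± 2.28 TPM was 1.31 at 3 h and 1.45 at 24 h (exact permutation p = 0.0286 for each). Coverage-derived values gave an exact permutation p of 0.0571 for each. The log2 difference was 0.39 at 3 h (SE 0.11, limma adjusted p = 0.11, from 0.065 to 0.307 over the alternatives) and 0.53 at 24 h (SE 0.12, unadjusted p = 0.000396 and adjusted p = 0.632 by limma). Of all genes tested, 9.88% had 3 h tumors wholly above the controls, and 2.01% had 24 h tumors above them. On scaled TPM the differences were 0.32 (limma adjusted p = 0.099) and 0.58 (limma adjusted p = 0.32). Between times, Hmox1 fell by 0.41 from 3 h to 12 h (limma adjusted p = 0.0199), but by 0.13 on scaled TPM (limma adjusted p = 0.55).

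In MC-38, Hmox1 was both higher and far more variable. It held 71.6, 226, 223 and 187 TPM in controls, 121, 89.8, 318 and 104 at 3 h, 225, 263, 232 and 340.4 at 12 h, then 121, 198, 199 and 283 at 24 h. The groups overlapped, with 3 of 4 tumors at 12 h above all controls (265 ± 52.9 against 177 ± 72.4 TPM, SD, n = 4 each, exact permutation p = 0.0571). Its residual SD was 0.637 log2 units, above 93.8% of the genes tested in MC-38, against 0.149 in RM-9, where the median gene was at 0.191. Markers of cells that take up or hold heme were lower at 12 h in MC-38, where the mean of Hmox1 was higher without passing the test. Of these, 4 of 6 macrophage markers and 4 of 4 tested erythroid markers fell (5 of 6 and 4 of 4 on scaled TPM). Of all 15698 genes, 406 passed lower on TPM, and 9.98% did on scaled TPM. The macrophage sum was 584 to 1004 TPM in controls and 215 to 561 at 12 h, and the erythroid sum was 83.2 to 215 TPM in controls and 52.0 to 76.5 at 12 h. Their part in the Hmox1 values was not tested.

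Nqo1, the quinone reductase that is the usual reporter of Nrf2 activity, did not pass the test against control in any comparison. RM-9 held 4.39, 4.43, 4.58 and 3.91 TPM in controls, 6.04, 4.34, 6.49 and 5.43 at 3 h, 3.82, 5.86, 3.73 and 3.93 at 12 h, then 3.23, 3.82 and 3.36 at 24 h. At 24 h all 3 tumors lay below all controls (3.47 ± 0.311 against 4.33 ± 0.289 TPM, exact permutation p = 0.0571), where Hmox1 lay above them. The log2 difference was -0.28 and the limma adjusted p 1.0, and 2.24% of all genes had 24 h tumors wholly below the controls. MC-38 held 14.3, 26.9, 31.6 and 28.5 TPM in controls, 31.4, 15.0, 35.8 and 17.0 at 3 h, 32.9, 26.7, 35.3 and 55.1 at 12 h, then 11.7, 33.8, 28.6 and 28.5 at 24 h, and its residual SD was 0.566.

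Osgin1, an oxidative stress inducible growth inhibitor, was higher at 12 h in MC-38 on TPM. It held 7.03, 9.79, 9.34 and 9.42 TPM in MC-38 controls, 12.1, 9.06, 12.8 and 7.14 at 3 h, 11.4, 12.9, 15.3 and 18.3 at 12 h, then 7.53, 11.4, 11.1 and 11.9 at 24 h. All 12 h tumors were above all controls, and Osgin1 was higher by 0.66 (SE 0.20, limma adjusted p = 0.0266, exact permutation p = 0.0286), a ratio of means of 1.63. It was 0.56 without control mouse 1 (limma adjusted p = 0.083) and 0.32 on scaled TPM (limma adjusted p = 0.23), so the call was lost in both. RM-9 held 3.41, 2.40, 1.93 and 2.08 TPM in controls, 2.04, 2.66, 1.91 and 2.43 at 3 h, 1.41, 1.86, 2.05 and 1.74 at 12 h, then 2.89, 2.00 and 2.88 at 24 h. These groups overlapped.

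**Figure D4:**
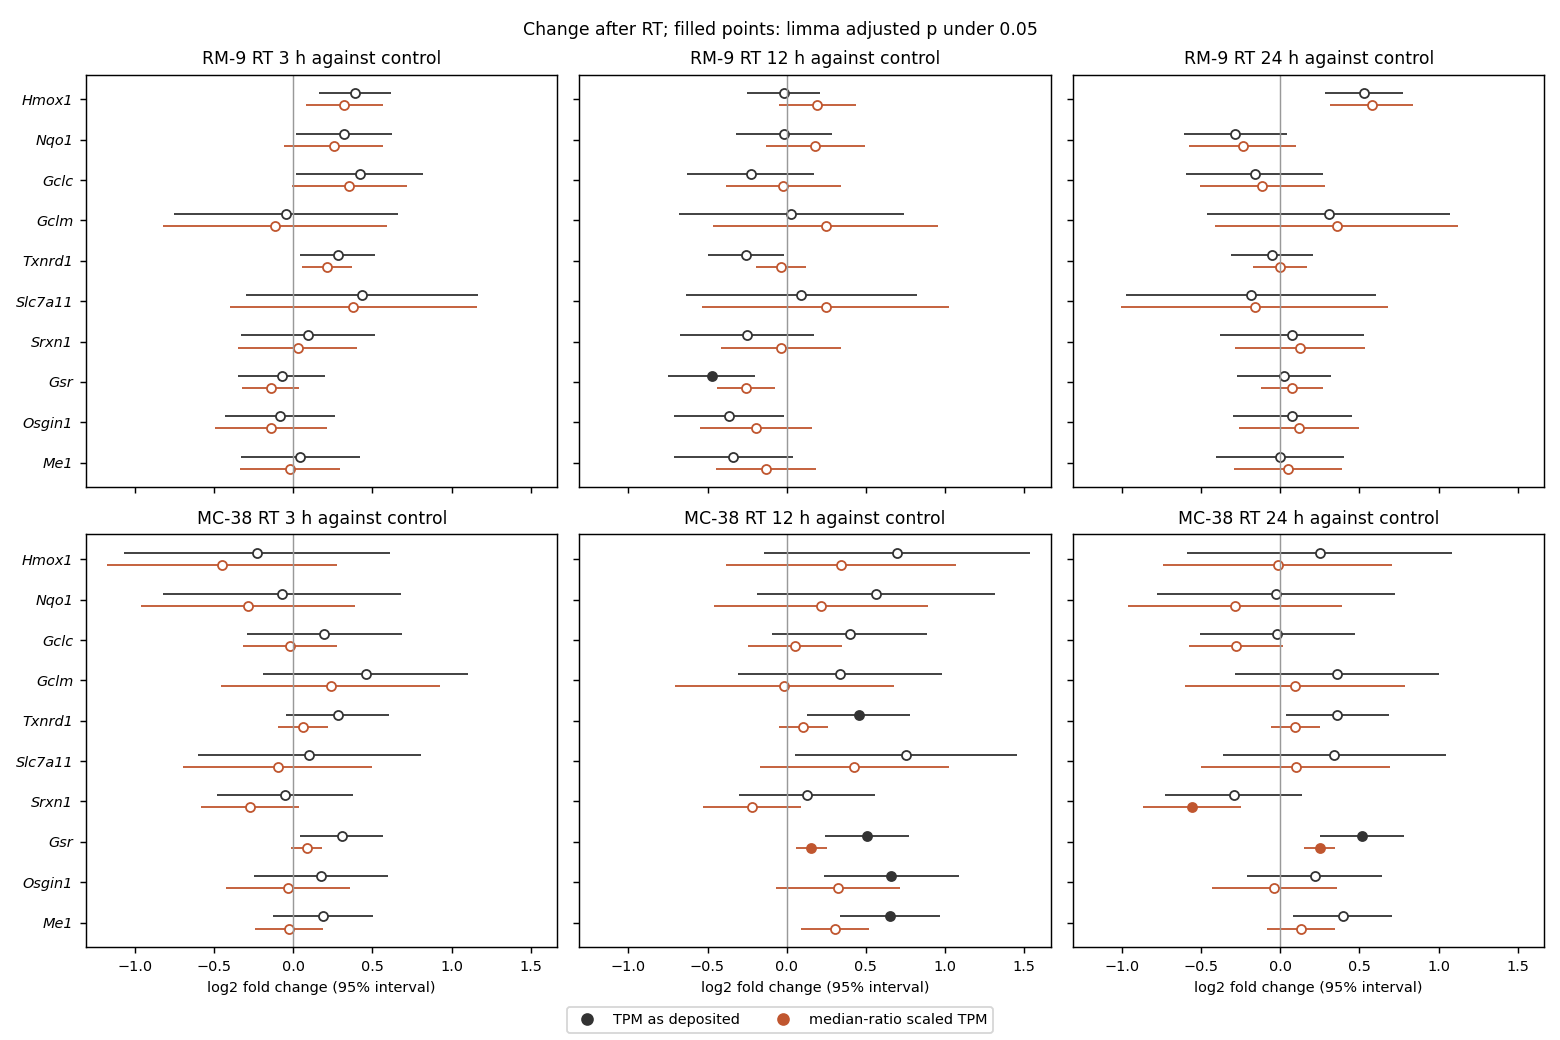
Log2 fold change with its 95% interval for each gene at each RT time against control, RM-9 above and MC-38 below, on TPM (black) and scaled TPM (orange), with filled points where limma gave an adjusted p under 0.05. On TPM 4 points are filled in MC-38 at 12 h and 1 at 24 h, while on scaled TPM Gsr stays filled at both times and Srxn1 is filled below 0 at 24 h.

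Over the 10 genes, the median log2 difference in MC-38 was 0.18 at 3 h, 0.54 at 12 h and 0.30 at 24 h, against 0.19, 0.33 and 0.22 over all genes. In RM-9 it was 0.19, -0.24 and 0.011, against 0.056, -0.19 and -0.040. At 12 h in MC-38 34.5% of all genes had RT tumors wholly above the controls, and 4 of the 10 did. Scaled TPM left 1 of the 10 called at 12 h, Gsr, against 6.27% of all genes higher and 9.98% lower, and 2 at 24 h, Gsr higher and Srxn1 lower, against 7.79% and 8.2%. Coverage-derived values left 2 at 12 h, Gsr and Me1, against 10.6% of all genes higher.

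The change at 12 h differed between the models for 4 of the 10, tested as an interaction in 1 fit of all 31 libraries. Osgin1 (1.03, adjusted p = 0.0055), Me1 (0.99, adjusted p = 0.0038), Gsr (0.98, adjusted p = 0.0016) and Txnrd1 (0.71, adjusted p = 0.0075) had a higher 12 h difference from control in MC-38 than in RM-9 by limma, in log2 units. Of all genes, 44.9% passed in that direction, and their median was 0.50 against 0.69 for the 10. On scaled TPM only Gsr passed, at 0.44 (limma adjusted p = 0.013), where 1.52% of all genes did. The interaction passed for 0 of 10 at 3 h and 0 of 10 at 24 h, and for 0% and 1.81% of all genes. At an unadjusted p under 0.05 it was 1 of 10 each, against 9.89% and 22.2% of all genes.

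Between neighbouring times, 4 of 10 fell from 3 h to 12 h in RM-9, Hmox1, Gclc, Txnrd1 and Gsr, against 28.7% of all genes lower. None of the 4 passed on scaled TPM, where 0.25% of all genes were lower. From 12 h to 24 h in RM-9, 0 of 10 passed, as did 0% of all genes, and 3 of 10 reached an unadjusted p under 0.05, against 18.8%. Hmox1 (0.55), Gsr (0.50) and Gclm (0.28) had 24 h tumors wholly above the 12 h tumors, as had 12.7% of all genes. In MC-38, 0 of 10 passed from 3 h to 12 h (0% of all genes), with 3 of 10 at an unadjusted p under 0.05 against 10.1% of all genes, and 0 of 10 from 12 h to 24 h (1.39% of all genes higher and 0.293% lower), with 1 of 10 against 14%. Me1 was wholly higher at 12 h than at 3 h (0.46, limma adjusted p = 0.31), as were 10.1% of all genes. Gclc and Srxn1 (-0.42, limma adjusted p = 0.37) were wholly lower at 24 h than at 12 h, as were 9.85% of all genes.

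**Figure D5:**
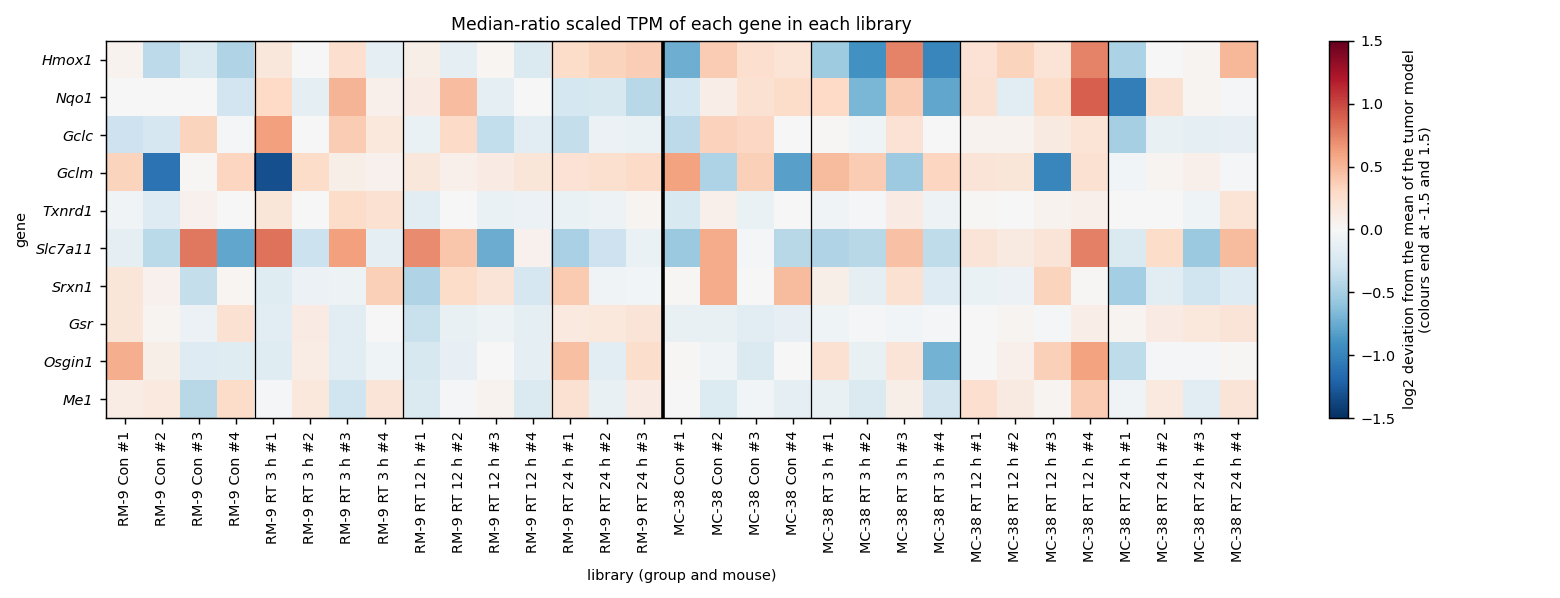
Scaled TPM of each gene (rows) in each library (columns, by group and mouse) as the log2 deviation from the mean of its tumor model, with colours ending at -1.5 and 1.5. MC-38 RT 12 h mouse 4 is the highest of its group for 9 of the 10 genes and MC-38 RT 24 h mouse 1 the lowest for 7, while the Gsr row is nearly flat within each MC-38 group.

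Part of the spread in MC-38 was shared between genes of a tumor. On TPM, MC-38 control mouse 1 was the lowest control for 9 of the 10 genes, all but Gclm, RT 3 h mouse 3 the highest of its group for 8, RT 12 h mouse 4 the highest for 9, all but Srxn1, and RT 24 h mouse 1 the lowest for 9, all but Slc7a11. On scaled TPM these counts were 5, 7, 9 and 7, and control mouse 1 was also the highest control for 3 of the 10. The share of all genes that were highest or lowest in these tumors was not computed. Whether these counts differ from genes in general is therefore not known. RT 24 h mouse 1 had the largest muscle marker sum of its group, 3295 TPM. The part of muscle tissue in these values was not tested.

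Of the 8 regulators, none passed the test against control in RM-9 and 2 did in MC-38. Of all genes tested in MC-38, 28.5% passed higher at 12 h, where Maff did, and 13.2% at 24 h, where Mafk did. Nfe2l2, which encodes Nrf2, was at 50.7, 51.0, 57.2 and 50.4 TPM in RM-9 controls and at 64.2, 65.1, 57.5 and 68.2 at 3 h, all above all controls. That difference was 0.28 (SE 0.084, limma adjusted p = 0.12). In MC-38, Nfe2l2 was at 38.3, 56.1, 61.9 and 56.5 TPM in controls and 60.0, 66.8, 68.2 and 78.3 at 12 h, a difference of 0.37 (limma adjusted p = 0.07). That was near the median of 0.33 over all genes on TPM. Coverage-derived values of Nfe2l2 were 7.62 ± 0.768 at 12 h against 7.08 ± 0.509 in controls (SD, n = 4 each). The fitted difference of Nfe2l2 between untreated models was 0.00 on the log2 scale of TPM, where all 10 targets were higher in MC-38. Maff, a small Maf partner, was at 10.0, 20.4, 17.2 and 11.2 TPM in MC-38 controls and 20.6, 24.6, 19.0 and 24.8 at 12 h. It was higher by 0.63 (limma adjusted p = 0.034), but 0.29 on scaled TPM (limma adjusted p = 0.19) and 0.47 without control mouse 1 (limma adjusted p = 0.115). Mafk was at 18.9, 35.1, 33.4 and 26.7 TPM in MC-38 controls and 37.1, 38.8, 39.5 and 43.1 at 24 h, all above all controls. It was higher by 0.50 (limma adjusted p = 0.039) and by 0.24 on scaled TPM (limma adjusted p = 0.046), and by 0.32 without control mouse 1 (limma adjusted p = 0.074).

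The other regulators did not pass the test against control in either model. Keap1, the Nrf2 adaptor, spanned 10.5 to 19.7 TPM in RM-9 and 20.0 to 31.3 in MC-38, Bach1 3.95 to 8.59 and 4.86 to 9.36, and Cul3 24.9 to 43.4 and 33.8 to 57.8. Mafg spanned 17.0 to 25.7 and 19.0 to 48.7 TPM, and Nfe2l1, an Nrf2 relative that controls proteasome genes, 30.3 to 58.6 and 87.6 to 128. Maff in RM-9 spanned 13.8 to 26.0 TPM and Mafk 7.22 to 12.3. Untreated MC-38 was higher than untreated RM-9 for 4 of the 8, Mafk (1.43), Nfe2l1 (1.14), Keap1 (0.64) and Mafg (0.52), against 64.7% of all genes. On scaled TPM 2 were higher, Mafk and Nfe2l1, against 34.1% of all genes. On that scale 4 were lower, Cul3, Nfe2l2, Bach1 and Maff, as were 4845 of 15358 genes. The response element core was found in the 250 bases before a start of Nfe2l2, Mafg, Maff and Mafk, against 10.2% of all promoters.

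A list of 39 other Nrf2-linked genes, for glutathione transfer and export, NADPH supply, thioredoxins, heme and iron, and carbonyl detoxification, was counted in the same fits. In RM-9, 31 were tested, 0 passed at 3 h, 4 were lower at 12 h, beside 8.3% of all genes, and 0 passed at 24 h. The 4 were Tkt (-0.46, limma adjusted p = 0.026) and Pgd (-0.49, limma adjusted p = 0.0312) of the pentose phosphate pathway, Prdx6 (-0.46, limma adjusted p = 0.0303), a peroxiredoxin, and Txn1 (-0.42, limma adjusted p = 0.0494), thioredoxin itself. Tkt stood at 63.8 ± 5.94 TPM against 87.5 ± 3.09 in controls (SD, n = 4 each). On scaled TPM 0 of the 31 passed at 12 h in RM-9. In MC-38, 36 were tested, and 0 passed at 3 h, 12 were higher and 1 lower at 12 h and 4 were higher at 24 h, beside the 28.5% and 13.2% of all genes given above. Without control mouse 1, 3 were higher and 0 lower at 12 h and 3 were higher at 24 h, where 1558 and 1226 of all 15698 genes were higher.

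The MC-38 genes with the smallest adjusted p were Ephx1, Cbr3, Fech and Gsta4. Ephx1, an epoxide hydrolase, was at 4.29 ± 1.87 TPM at 24 h against 1.28 ± 0.437 in controls (SD, n = 4 each), higher by 1.38 (limma adjusted p = 0.0099) and by 1.16 on scaled TPM (limma adjusted p = 0.033), and by 1.45 without control mouse 1 (limma adjusted p = 0.0171). Gsta4, a glutathione transferase for lipid aldehydes, was at 31.4 ± 6.50 TPM at 12 h against 15.0 ± 4.42 (SD, n = 4 each), higher by 1.07 (limma adjusted p = 0.0176) and by 0.73 on scaled TPM (limma adjusted p = 0.0428), but 0.87 without control mouse 1 did not pass (limma adjusted p = 0.0559). Cbr3, a carbonyl reductase, was at 16.8 ± 1.81 TPM at 24 h against 11.6 ± 1.56 (SD, n = 4 each), higher by 0.52 (limma adjusted p = 0.0112) but 0.27 on scaled TPM did not pass (limma adjusted p = 0.0762), and the value without control mouse 1 was 0.43 (limma adjusted p = 0.0194). Fech, the last enzyme of heme synthesis, was higher by 0.40 at 12 h (limma adjusted p = 0.0142), but 0.052 on scaled TPM did not pass (limma adjusted p = 0.73), and the value without control mouse 1 was 0.36 (limma adjusted p = 0.0263). Over the whole list scaled TPM gave 1 higher and 4 lower at 12 h and 1 higher and 3 lower at 24 h in MC-38. Of all genes, 6.27% were higher and 9.98% lower at 12 h on that scale, and 7.79% and 8.2% at 24 h. In untreated tumors 24 of 34 were higher and 3 lower in MC-38, and 14 and 9 on scaled TPM. Of all 15358 genes, 64.7% were higher and 1641 lower on TPM, and 34.1% and 4845 on scaled TPM.

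Markers of other cells also differed in other comparisons. In RM-9 the macrophage sum was 387 to 625 TPM in controls and 226 to 440 at 12 h, with 3 of 6 markers lower, and 1 of 4 epithelial markers was lower at 12 h, none of which passed on scaled TPM. T cell markers summed to 1.98 to 3.84 TPM in RM-9 controls and 0.506 to 1.95 at 12 h, with 1 of 2 tested lower and 0 on scaled TPM. Of all genes tested in RM-9, 8.3% were lower at 12 h, and 0.0428% on scaled TPM. In MC-38 the T cell markers summed to 8.01 to 12.1 TPM in controls and 4.44 to 9.28 at 12 h, with 2 of 4 lower and 4 of 4 on scaled TPM. Of all 15698 genes, 406 were lower at 12 h, and 9.98% on scaled TPM. At 24 h in MC-38, where Gsr passed, endothelial markers summed to 47.9 to 58.1 TPM against 32.4 to 44.9 in controls. Of these, 2 of 3 were higher, beside 13.2% of all genes, and 0 on scaled TPM, beside 7.79%. Adipocyte markers summed to 1.17 to 7.32 TPM against 0.175 to 0.915. Neutrophil markers summed to 3.79 to 37.2 TPM over all libraries, with 0 called on TPM against control at any time. Fibroblast markers summed to 214 to 776 TPM, with 1 of 4 higher in MC-38 at 12 h, near the 28.5% of all genes. The part of these cells in the results above was not tested.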

How the data were processed

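Messenger RNA of 31 tumors was sequenced with 75-base single-end reads from a strand-specific library kit. The authors deposited 1 table per library with TPM, FPKM and coverage per gene, where TPM sums to the same total in every library, FPKM differs from TPM by a constant per library, and deposited coverage is the unscaled mean read depth per base. The submitters' processing notes name bcl2fastq 2.17 and GRCm39, while the gene positions match GENCODE M21 on GRCm38 (91.1% of shared genes had the same start or end, as had both ends of 8 of the 10 genes), and the aligner and quantifier are not given in the sources used here. Rows of the same gene were summed. Dividing coverage by FPKM gave each library its depth. No counts were used here, so no counting interval is given.

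Groups came from the sample labels. limma 3.58.1 (R 4.3.3; lmFit, eBayes with a trend) was run on log2(TPM + 0.5) over genes whose mean TPM reached 0.5 (14013 in RM-9, 15698 in MC-38, 15358 over both), with the 4 groups of a model in 1 fit, and adjusted over all genes by Benjamini-Hochberg. A fold change on this scale understates low genes. Single genes also had a two-sided exact permutation test of mean TPM over 70 assignments for 4 against 4 or 35 for 3 against 4, whose smallest possible p is 0.0286 in both. Alternatives were a pseudocount of 0.1 or 1, median-ratio scaling, TPM without mitochondrial genes, no filter or a mean TPM of at least 5, only the groups compared, no trend, the mouse number as a block, and each library left out. Values rebuilt from coverage, with and without median-ratio scaling, and scaled TPM without MC-38 control mouse 1 were added after seeing the data. The fit was tested on simulated data.

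The 10 genes and the lists of regulators, other Nrf2-linked genes and markers were chosen with earlier results of these data known. Named beyond them were up to 4 other Nrf2-linked genes per model by adjusted p, and the 3 genes nearest to the member with the largest change. Same-numbered mice did not deviate together (median r -0.061 over 21 pairs in RM-9 and -0.073 over 24 in MC-38), so no pairing was used. Python 3.11.15, pandas 2.3.3 and scipy 1.17.1 were used for the rest.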

Additional observations from a re-analysis of the deposited data

Results flagged for a closer look

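Among 70 groups of 4 tumors tested for a stray library, 8 held one whose gap to its nearest neighbour passed Dixon's limit for its share of the group's range, against about 1 in 20 by chance. In MC-38 these were Hmox1 at 318 TPM in RT 3 h mouse 3, Gclc at 18.0 and Gclm at 77.7 TPM in RT 24 h mouse 1, Gclm at 47.8 TPM in RT 12 h mouse 3, Slc7a11 at 15.5 TPM in RT 12 h mouse 4 and Osgin1 at 7.03 TPM in control mouse 1. In RM-9 they were Nqo1 at 5.86 TPM in RT 12 h mouse 2 and Srxn1 at 35.7 TPM in RT 3 h mouse 4. For 2 of these the deposited FPKM of that tumor also stood apart from its coverage-derived value: the ratio was 1.96 for Gclm in MC-38 RT 12 h mouse 3, against 3.31 to 3.69 in the others of its group, and 1.42 for Srxn1 in RM-9 RT 3 h mouse 4, against 1.01 to 1.04, and the coverage-derived Srxn1 values of that group were 25.3, 27.6, 27.8 and 28.2. For Gclm in MC-38 RT 24 h mouse 1 the ratio was 3.87 against 3.19 to 3.68, and its coverage-derived value of 15.7 was also the lowest, against 19.1 to 21.02. In MC-38 RT 12 h mouse 3 the coverage-derived Gclm value of 17.7 was also the lowest of its group, where the highest was 23.8. MC-38 control mouse 1 had a size factor of 0.653, and on scaled TPM it was the highest control for Osgin1. The rate of 1 in 20 holds for independent groups, while the genes were read in the same tumors.

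The change at 12 h differed between the tumor models, by the limma interaction, for Txnrd1 (0.71), Gsr (0.98), Me1 (0.99) and Osgin1 (1.03), as MC-38 minus RM-9 in log2 units. Without MC-38 control mouse 1 these were 0.52, 0.85, 0.89 and 0.92, and all 4 passed the test. On scaled TPM and in both coverage-derived fits 1 of the 4 passed, Gsr, and on TPM 44.9% of all genes passed in the same direction.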

How the results depend on the processing

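The pseudocounts, the stricter filter and the mouse number as a replicate block left the number of the 10 genes called within 1.5 times in all 14 comparisons; with the block the counts were 1 in RM-9 at 12 h, 4 from 3 h to 12 h in RM-9, 4 in MC-38 at 12 h, 1 at 24 h, 10 between untreated models and 4 for the interaction at 12 h. The lower Gsr in RM-9 at 12 h (1 call) became 0 with median-ratio scaling, TPM without mitochondrial genes, no filter, only the groups compared, no trend, and coverage-derived values with or without scaling. Of all genes, 6 of 14013, 69 of 15329, 557 of 26523, 1 of 14013 and 811 of 14013 were lower in the first 5 of these. With coverage-derived values 33 of 13688 were lower with scaling and 64 without. The 4 lower genes from 3 h to 12 h in RM-9 became 0 with median-ratio scaling and with both coverage-derived fits, 1 without mitochondrial genes and 2 with no filter. Of all genes, 35 of 14013 were lower with median-ratio scaling, and 67 and 47 of 13688 with coverage-derived values without and with scaling. Without mitochondrial genes 217 of 15329 were lower, and with no filter 2466 of 26523. The 4 calls in MC-38 at 12 h became 1 with median-ratio scaling or only the groups compared, and 2 with no filter and with both coverage-derived fits. Of all genes, 985 and 669 of 15698 were higher in the first 2 of these, and 2642 of 28188 with no filter. With coverage-derived values 1532 of 14396 were higher without scaling and 1076 with it. The 1 call in MC-38 at 24 h became 2 with median-ratio scaling, with or without coverage-derived values, and 0 with only the groups compared. Of all genes, 2511 of 15698 passed with median-ratio scaling of TPM and 2819 of 14396 with that of coverage-derived values. With only the groups compared, 312 of 15698 passed. The 4 interaction calls at 12 h became 1 with median-ratio scaling and with both coverage-derived fits. Of all genes, 233 of 15358 passed higher with median-ratio scaling, and 466 and 321 of 14398 with coverage-derived values without and with scaling. Median-ratio scaling without MC-38 control mouse 1, chosen after seeing the data, gave 0 calls at 12 h, 3 at 24 h and 1 for the interaction at 12 h. Of all genes, 1050 and 1757 of 15698 passed in that fit at 12 h and 24 h, and 142 of 15358 for the interaction. Srxn1 between untreated models reversed to -0.049 with median-ratio scaling.

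Leaving out 1 library at a time gave 0 to 1 calls in RM-9 at 12 h, 0 to 5 from 3 h to 12 h in RM-9, 2 to 5 in MC-38 at 12 h, 0 to 2 in MC-38 at 24 h, 9 to 10 between untreated models and 4 to 5 for the interaction at 12 h, and 0 in the other comparisons. From 3 h to 12 h in RM-9 the count was 0 without 3 h mouse 4 or 12 h mouse 1, where 2 and 0 of all 14013 genes passed. It was 1 without 3 h mouse 1 or 12 h mouse 4, where 1019 and 1325 of all genes were lower. In MC-38 the count was 2 at 12 h without control mouse 1, where 1558 of 15698 genes were higher, or without 12 h mouse 2, 3 or 4. At 24 h in MC-38 it was 0 without 24 h mouse 4 and 2 without control mouse 3 or 24 h mouse 1. The causes were not tested. Without counts, the part of depth could not be computed; it bears most on Slc7a11 in RM-9, at 0.477 to 2.70 TPM.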
